A study of Mus musculus with 4 samples.

Results

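Small nucleolar RNAs (symbols Snora and Snord), Cajal body RNAs (Scarna) and U RNAs (Rnu) were compared between mouse bone marrow cells grown in GM-CSF and in M-CSF. The members are all genes whose platform symbol begins with one of these names followed by a digit and stands alone on its probe set. There were 59 of them among the 19938 genes of the array: 20 Snora, 31 Snord, 3 Scarna and 5 Rnu genes. All 59 matched a RefSeq gene by gene ID. Each was represented by 1 probe set, and 49 passed the filter on dim values and were tested. The filter asks that at least 2 of the 4 arrays exceed the level below which 30% of that array's probe sets lie.

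Bone marrow of C57BL/6J mice was the source of both groups, and no genetic change is named in the labels. The GM-CSF cells, called M1 by the submitters, were cultured for 7 days and sorted for CD45, F4/80 and MHC class II on the surface and for lack of CD8a. The M-CSF cells, called M2, were cultured for 7 days with 20% supernatant of L929 cells, a fibroblast line that secretes M-CSF, and were sorted as positive for CD45, F4/80 and CD11b. Growth factor, supernatant and sort gate differed together and cannot be told apart. Each group had 2 arrays. The labels do not say whether replicates came from separate animals or cultures, so a p-value here reflects only how far these arrays spread, which in the M-CSF pair may be technical. The GM-CSF arrays differed in Xist and a Y-linked gene, given below, as female and male cells do, so their cells did not come from the same animal.

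Most small nucleolar RNAs are cut from the introns of host genes, many of which encode ribosomal proteins, while some hosts are long non-coding RNAs with no protein product. C/D box RNAs (Snord) guide methylation of ribose in ribosomal RNA, and H/ACA box RNAs (Snora) guide the change of uridine to pseudouridine. A few, such as U3 (Rnu3a), U8 (Snord118) and E1 (Snora73a and Snora73b), are needed for cutting the ribosomal RNA precursor. Cajal body RNAs guide the same modifications on spliceosomal RNAs, and Rnu12 is the U12 RNA of the minor spliceosome.

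A C box in a C/D box RNA and an ACA in a Cajal body RNA can be seen in members that overlap an annotated miRNA. These entries are shown, taken from RefSeq (GRCm38.p6), and no D box or H box was marked. The mature miR-5121 starts at the first annotated base of Snord33, inside Rpl13a (chr7:45126925-45126945, minus strand), and its capitals mark a C box. The Mir3069 hairpin lies inside Scarna13, in Snhg10 (chr12:105031077-105031141, minus strand), and its capitals mark an ACA that ends 3 bases before the annotated end of Scarna13.
miR-5121: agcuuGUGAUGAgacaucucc
Mir3069 hairpin: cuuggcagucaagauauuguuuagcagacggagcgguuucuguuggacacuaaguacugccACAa
The gene table gives no strand for the members, so both positions are read on the strand of the miRNA entry, which is also that of the host. A probe set for an intronic small RNA cannot part the finished RNA from the unspliced transcript of its host, nor from such an overlapping miRNA precursor. This limit applies to all intronic members.

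GM-CSF replicate 1 stood apart from the other 3 arrays. Its Xist value was 11.58 against 4.93 in the other GM-CSF array and 4.53 and 4.80 in the M-CSF arrays, and its Eif2s3y value, from a Y-linked gene, was 3.66 against 9.10, 9.32 and 9.17. All 8 macrophage markers read between 10.28 and 13.31 on all arrays, and 0 of the 8 passed the test (limma; 1 at an unadjusted p under 0.05). Of other cell type markers, 2 of 3 platelet genes (Pf4 and Ppbp) and 2 of 4 dendritic genes (Ccr7 and Clec9a) were higher in the GM-CSF arrays. The other dendritic genes, Zbtb46 (log2 difference 0.25) and Flt3 (-0.32), went in opposite directions and did not pass. The B cell gene Cd79b was lower. Of 4 fibroblast genes Dcn was higher and 3 did not pass, with a list median of -0.13. Of 7 neutrophil genes Mpo was lower and 6 did not pass, with a list median of 0.01. The summed linear level of the 4 dendritic markers was 483 and 416 in GM-CSF and 197 and 225 in M-CSF arrays, and that of the 3 platelet markers 9630 and 4020 against 1310 and 984. For the 3 B cell markers it was 253 and 295 against 1200 and 1250, and 2 of these 3 lay below the filter. Neutrophil markers summed to 1290 and 565 against 815 and 687, and fibroblast markers to 515 and 449 against 431 and 457. The part of these cell types, and of GM-CSF replicate 1, in the small RNA values was not tested beyond leaving out each array. Values are per amount of RNA, so fewer cells of a type and less of an RNA per cell cannot be told apart.

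Small RNA genes lay lower in GM-CSF than in M-CSF cells, mostly by less than 2-fold. Over all 59 members the median log2 difference (GM-CSF minus M-CSF) was -0.29, and over all 19938 genes it was -0.02. The mean of the GM-CSF arrays was below that of the M-CSF arrays for 51 of 59 members (86.4%), against 54.1% of all genes. By family the median was -0.44 for H/ACA box genes, -0.28 for C/D box genes, -0.01 for the 3 Cajal body genes and -0.10 for the 5 U RNA genes. The U RNA median is the value of Rnu7, which lay below the filter, as did Rnu6 and Rnu5g. The U RNA genes tested, Rnu3a and Rnu12, differed by -1.58 and -1.50 without passing, and were low mainly in GM-CSF replicate 1. For the 291 genes whose symbol begins with Mir and a digit, mostly another class of short RNA genes, the median was -0.04. Of these, 162 lay below the filter, so their median rests largely on dim values. Among the 129 tested, 5 were lower and 0 higher (limma adjusted p under 0.05), against 4.53% and 6.18% of all genes tested. The 5 included Mir99ahg, a host gene (-2.43), and Mir99a (-1.835). Leaving out each array in turn moved the median of the members between -0.28 and -0.31.

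Of the 49 members tested, 4 (8.16%) fell in GM-CSF cells and 0 rose (limma, Benjamini-Hochberg adjusted p under 0.05), and 45 did not pass. The other 10 of the 59 members were below the filter. Among all 14995 genes tested, 4.53% were lower and 6.18% higher by the same rule. At an unadjusted p under 0.05 (limma), 19 of the 49 members (38.8%) were lower and 0 higher, against 12.6% and 12.9% of all genes. Both GM-CSF arrays lay below both M-CSF arrays for 30 of the 49 members tested (61.2%), against 29.2% of all genes tested. They lay above for 1 of the 49, Snora52, against 26.3%. Only Snord118, Rnu3a, Rnu12, Snora73b, Snord104, Snora73a and Snora16a differed by at least 2-fold between the means, 7 members in all, all of them lower in GM-CSF cells, against 1.49% of all genes in that direction. The number of calls turned on the arrays kept. Without M-CSF replicate 1 or replicate 2, 0 members were lower. In these fits the residual spread comes from the GM-CSF pair alone, and the part of this in the lost calls was not tested. Without GM-CSF replicate 1, 14 were lower and 2 higher, and without GM-CSF replicate 2, 24 were lower and 1 higher. With the replicate number as a block, 8 were lower. The shares of all genes above hold for the fit of all 4 arrays without a block. No such share is given for these other fits, so their counts cannot be set against a background.

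**Figure D1:**
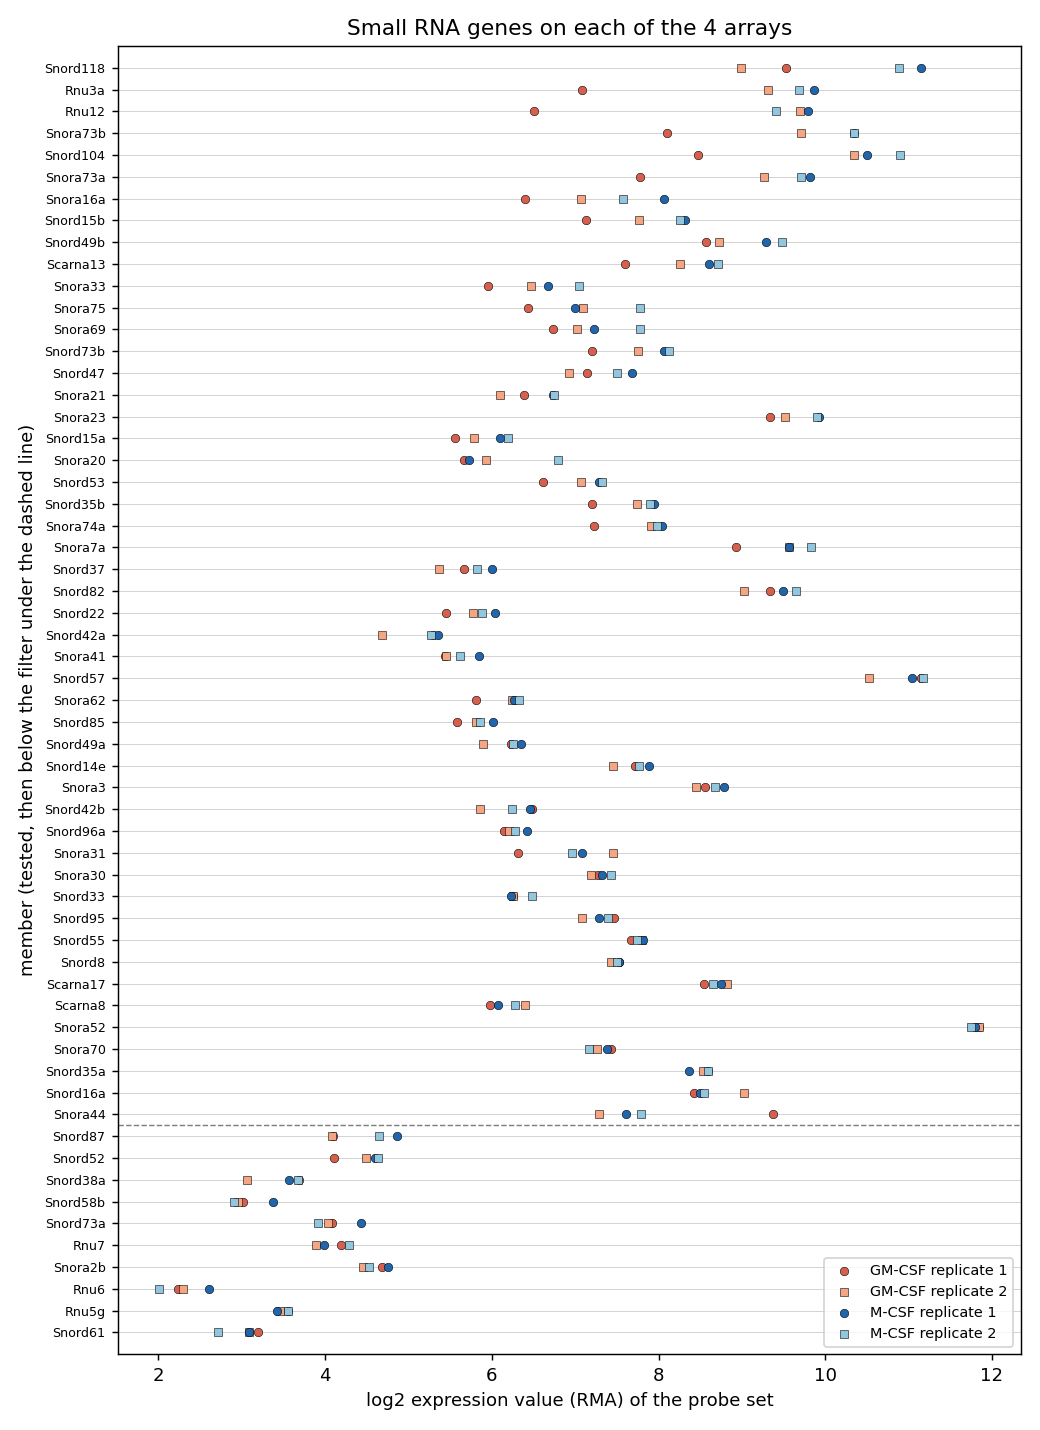
Log2 expression value (RMA) of the probe set of each of the 59 members on the 4 arrays, ordered by the difference between group means, with the 10 members below the filter under the dashed line. Rows at the top, such as Snord118, have both GM-CSF points left of both M-CSF points, while in Rnu12 GM-CSF replicate 1 (6.51) alone stands apart.

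Snord118, which encodes the U8 RNA needed to process the large-subunit ribosomal RNAs, had the largest difference among the members tested. It read 9.53 and 8.99 in the GM-CSF arrays and 11.15 and 10.88 in the M-CSF arrays. Both GM-CSF values were below both M-CSF values by more than the spread within either pair. The mean fell 3.37-fold (log2 difference -1.75 ± 0.20 SE, n = 2 per group, limma adjusted p = 0.0042). The difference stayed between -1.62 and -1.89 without M-CSF replicates 1 and 2, but with adjusted p of 0.096 and 0.0727 (limma). RefSeq places Snord118 inside no other gene, and its 2 probe sets held identical values.

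U3 and both copies of E1, which also act in ribosomal RNA cutting, were low mainly in GM-CSF replicate 1. Rnu3a read 7.08 and 9.31 in GM-CSF and 9.87 and 9.68 in M-CSF cells (log2 difference -1.58 ± 0.65 SE, limma adjusted p = 0.194). Leaving out GM-CSF replicate 1 gave -0.46, and leaving out replicate 2 gave -2.69. Snora73b read 8.10 and 9.71 in GM-CSF and 10.34 and 10.35 in M-CSF cells (-1.44 ± 0.47, limma adjusted p = 0.115). Snora73a, a close copy, read 7.78 and 9.26 against 9.82 and 9.71 (-1.24 ± 0.43, limma adjusted p = 0.135). In all 3 genes both GM-CSF arrays lay below both M-CSF arrays, and none passed with all 4 arrays. Without GM-CSF replicate 1 the difference was -0.64 for Snora73b and -0.51 for Snora73a, and without replicate 2 it was -2.24 and -1.98. Members related to U14 and U22, further RNAs with a role in this cutting, showed smaller differences and were named after their values were seen. Snord14e (U14) read 7.72 and 7.45 against 7.88 and 7.77, with replicate 1 the higher GM-CSF array, and Snord22 (U22) 5.45 and 5.78 against 6.04 and 5.88, and neither passed.

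Snord49b, Snord47 and Snora23, all guides for modification of ribosomal RNA, also fell in GM-CSF cells. Snord49b read 8.57 and 8.73 in GM-CSF and 9.29 and 9.48 in M-CSF arrays. Its 1.66-fold difference (log2 -0.73 ± 0.13 SE, limma adjusted p = 0.0168) exceeded the spread within both pairs. Snord47, one of the RNAs in the introns of Gas5 and named after its value was seen, read 7.14 and 6.92 against 7.68 and 7.50 (-0.56 ± 0.13, limma adjusted p = 0.0456). Snora23, in Ipo7, read 9.34 and 9.52 against 9.92 and 9.90 (-0.48 ± 0.11, limma adjusted p = 0.0492). The last 2 lay close to the threshold: with no filter the adjusted p was 0.0632 for Snord47 and 0.0704 for Snora23 (limma). Snora23 also missed it after quantile normalization (0.0513), median centring (0.0604), with the replicate block (0.0631) and without GM-CSF replicate 1 (0.0585, all limma). Without M-CSF replicates 1 and 2 the adjusted p was 0.12 and 0.19 for Snord49b, 0.331 and 0.205 for Snord47 and 0.31 and 0.275 for Snora23 (limma).

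Among larger differences that did not pass, 2 members showed how much rested on GM-CSF replicate 1. Rnu12 read 6.51 and 9.70 in GM-CSF and 9.79 and 9.41 in M-CSF cells (log2 difference -1.50 ± 0.92 SE, limma adjusted p = 0.383). Leaving out GM-CSF replicate 1 gave 0.09, and leaving out replicate 2 gave -3.09. Snord104, a C/D box guide, read 8.47 and 10.35 against 10.50 and 10.90 (-1.29 ± 0.56, limma adjusted p = 0.215). Its difference became -0.35 when GM-CSF replicate 1 was left out and -2.23 when replicate 2 was. By contrast, Snora16a and Snord15b were low in both GM-CSF arrays. Snora16a, an H/ACA box RNA, read 6.40 and 7.07 against 8.06 and 7.57 (-1.08 ± 0.26, limma adjusted p = 0.0505). Snord15b, a C/D box RNA, read 7.13 and 7.76 against 8.32 and 8.26 (-0.85 ± 0.21, limma adjusted p = 0.053). Both passed with median centring (limma adjusted p = 0.0376 and 0.043), Snora16a also with the stricter filter (0.0486) and Snord15b with the replicate block (0.0415). Both missed the threshold with no filter (0.064 and 0.069), quantile normalization (0.0567 and 0.0617) and trended and robust variances (0.0937 and 0.0584, all limma). Without GM-CSF replicate 1 the differences were -0.75 for Snora16a and -0.53 for Snord15b. Without GM-CSF replicate 2 they were larger, at -1.42 and -1.17.

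Cajal body RNAs did not share one pattern. Scarna13 read 7.60 and 8.26 in GM-CSF and 8.61 and 8.71 in M-CSF arrays (log2 difference -0.73 ± 0.22 SE, limma adjusted p = 0.0912), and it passed with the replicate block (0.0459). Its difference became -0.40 when GM-CSF replicate 1 was left out and -1.06 when replicate 2 was. Scarna17 read 8.55 and 8.82 against 8.75 and 8.65, and Scarna8 5.98 and 6.40 against 6.07 and 6.28. The groups overlapped in both, with differences of -0.01 ± 0.13 and 0.01 ± 0.17 whose sign depended on the array left out.

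Members with small differences included both probe sets with high values and dim ones. Snora52 read 11.85 and 11.84 in GM-CSF and 11.80 and 11.75 in M-CSF cells (log2 difference 0.07 ± 0.10 SE). Snord57, a C/D box RNA in Nop56, read 11.15 and 10.52 against 11.04 and 11.17 (-0.28 ± 0.21). Snord33 and Snord35a, both in Rpl13a, differed by -0.10 ± 0.12 and 0.08 ± 0.12. The 10 members below the filter had values between 2.01 and 4.86 and were not tested. They included Rnu6, Rnu5g and Rnu7, so of the U RNA genes only Rnu12 and Rnu3a gave values that could be compared. Among these 10, Snord87 read 4.09 and 4.08 in GM-CSF against 4.86 and 4.65 in M-CSF arrays, and with no filter it was called lower (-0.67, limma adjusted p = 0.0271).

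**Figure D2:**
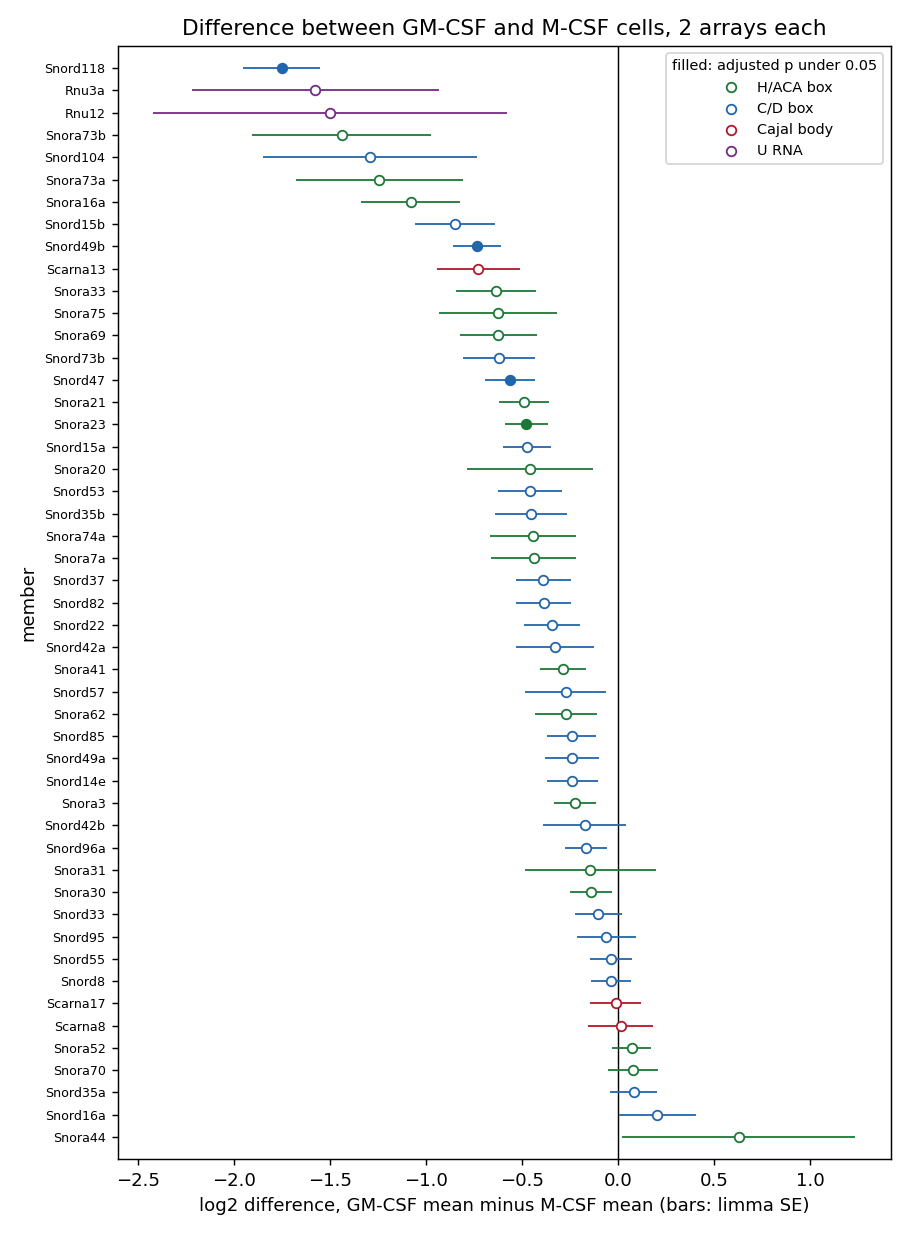
Log2 difference between the GM-CSF and M-CSF means (2 arrays each) for the 49 members tested, with bars for the SE of limma and colours for the family. Filled points (Snord118, Snord49b, Snord47 and Snora23) have an adjusted p under 0.05, and Rnu12 and Rnu3a have the longest bars.

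The 2 GM-CSF arrays differed from each other more than the M-CSF arrays did, and the small RNAs that differed were mostly low in replicate 1. With 1 array on each side there is no test. Replicate 1 was at least 2-fold below replicate 2 for 6 of the 49 members, against 0.700% of all genes tested. It was at least 2-fold above for 1 member, Snora44, against 0.807%. Rnu12 was 9.11-fold lower in replicate 1, Rnu3a 4.69-fold, Snord104 3.68-fold, Snora73b 3.04-fold, Snora73a 2.78-fold and Snora31 2.20-fold. Snora44 was 4.27-fold higher in replicate 1, with 9.37 against 7.28, and the M-CSF arrays read 7.61 and 7.79. Smaller gaps, with replicate 1 the lower array, were seen in Snora74a (7.22 against 7.91), Snora75 (6.44 against 7.09), Snora7a (8.93 against 9.57) and Snora33 (5.96 against 6.47). Other members went the other way, with replicate 1 the higher array: Snord57 (11.15 against 10.52), Snord42b (6.48 against 5.86), Snord42a (5.29 against 4.68) and Snord118 (9.53 against 8.99). Over all 59 members the SD of the replicate difference was 0.766 in the GM-CSF pair and 0.289 in the M-CSF pair, against 0.309 and 0.209 over all genes. Yet the median difference of the GM-CSF pair was only -0.06 over the members and -0.03 over all genes. In the M-CSF pair 1 member was at least 2-fold apart, Snora20 (5.73 and 6.79, named after its value was seen), against 0.0467% of all genes.

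**Figure D3:**
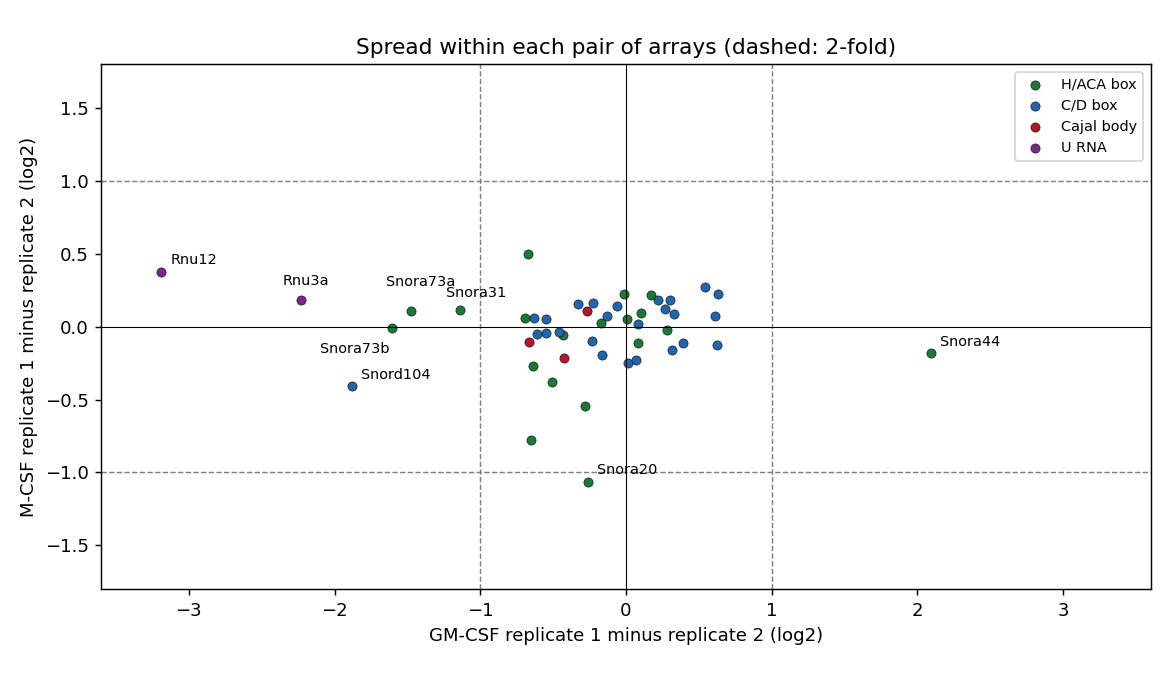
Log2 difference between replicate 1 and replicate 2 of the GM-CSF pair (horizontal) and of the M-CSF pair (vertical) for the 49 members tested, with dashed lines at 2-fold. Rnu12, Rnu3a, Snord104, Snora73a, Snora73b and Snora31 lie beyond the left line and Snora44 beyond the right one, while only Snora20 passes a horizontal line.

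Longer members tended to be lower in GM-CSF replicate 1. Across the 49 members tested, annotated length and the difference of replicate 1 minus replicate 2 had Spearman's rho of -0.51 and Pearson's r of -0.45. Without Rnu12 and Rnu3a, rho was -0.45 over 47 members. For the M-CSF pair rho was 0.11. For the difference between groups, which includes the values of GM-CSF replicate 1, rho was -0.35, and -0.27 without Rnu12 and Rnu3a. Of members low in replicate 1, Rnu3a is annotated at 212 bases, Snora73a and Snora73b at 205, Rnu12 at 150 and Scarna13 at 275. Snord104, at 73 bases, is short and was also low. Some longer members departed from this: replicate 1 minus replicate 2 was only -0.17 for Snora23 (184 bases) and was 0.54 for Snord118 (137 bases). These are descriptions across genes of the same arrays, and genes are not independent replicates.

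Members cut from one host did not always move together. RefSeq (GRCm38.p6) places 54 of the 59 members within the span of another gene, 47 distinct hosts in all, with strand not compared, and 8 hosts held 2 members that were both tested. The gap between the group differences of such pairs had a median of 0.22 on the log2 scale and ran from 0.11 to 1.71. Snora73a and Snora73b, both in Snhg3, were 0.20 apart. Snord49a and Snord49b, both in 2410006H16Rik, were 0.49 apart, at -0.24 and -0.73. The gap was largest in Snhg12, where Snora16a differed by -1.08 and Snora44 by 0.63 ± 0.61 SE (limma adjusted p = 0.605). Snora44 differed by -0.42 without GM-CSF replicate 1 and by 1.67 without replicate 2. Within the GM-CSF pair, replicate 1 minus replicate 2 was -0.67 for Snora16a and 2.09 for Snora44.

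The start regions of the hosts of these contrasting pairs are shown because translation-related genes, snoRNA hosts among them, are known for transcripts that start with a run of pyrimidines. The 100 bases run from 50 before to 50 after the annotated start (RefSeq, GRCm38.p6), for Snhg3 at chr4:132353637-132353736 (minus strand) and for Snhg12 at chr4:132308628-132308727 (plus strand). Capitals mark a run of at least 5 bases, a C followed by C or T alone, within 10 bases of the start on the gene's strand.
Snhg3: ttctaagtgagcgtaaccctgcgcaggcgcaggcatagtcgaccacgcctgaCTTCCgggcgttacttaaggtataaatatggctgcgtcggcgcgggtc
Snhg12: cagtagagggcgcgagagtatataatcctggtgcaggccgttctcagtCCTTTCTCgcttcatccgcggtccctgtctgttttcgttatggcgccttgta
Both windows hold such a run. It was found for 15 of the 33 hosts with a start region in the table (45.5%) and for 28.8% of all 27025 genes there, and a match is a description of letters only.

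The hosts Gas5, Rps12, Rpsa, Rpl27a, Ncl, Eef1b2, Rpl23a and Rplp2 fell in GM-CSF cells, although Rplp2 missed the threshold with the replicate block (limma adjusted p = 0.054) and with no filter (0.0577). In 26 pairs of a member and a host, both were tested, with 23 distinct hosts. Of these hosts 8 fell, 0 rose and 15 did not pass (limma), against the 4.53% and 6.18% of all genes given above. At an unadjusted p under 0.05 (limma) the counts were 16 lower and 0 higher, against 12.6% and 12.9% of all genes. With an array left out, 0 to 13 hosts fell. Gas5, a long non-coding host, fell 2.05-fold, with 8.07 and 8.19 in GM-CSF and 9.16 in both M-CSF arrays (log2 -1.04 ± 0.11 SE, limma adjusted p = 0.00291), and Snord47 inside it by 0.56 on the log2 scale. Rps12 and Rpsa, which encode ribosomal proteins of the small subunit, each differed by -0.89, and Snora33 and Snora62 inside them by -0.64 and -0.27. The hosts of Snora52 and Snora3, Rplp2 (-0.54) and Rpl27a (-0.77), fell while the RNAs themselves differed by 0.07 and -0.23 without passing. In Rps3, which did not pass (-0.15 ± 0.10), Snord15b differed by -0.85 and Snord15a by -0.48. The host median was -0.43 and that of the members in these pairs -0.31. The sign was the same in 21 of 26 pairs. Most hosts and most members had negative differences, so this count does not show that members followed their own hosts. Spearman's rho across pairs was 0.29. Without M-CSF replicate 1 or 2, 0 hosts fell, with limma adjusted p of 0.0734 and 0.0768 for Gas5.

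**Figure D4:**
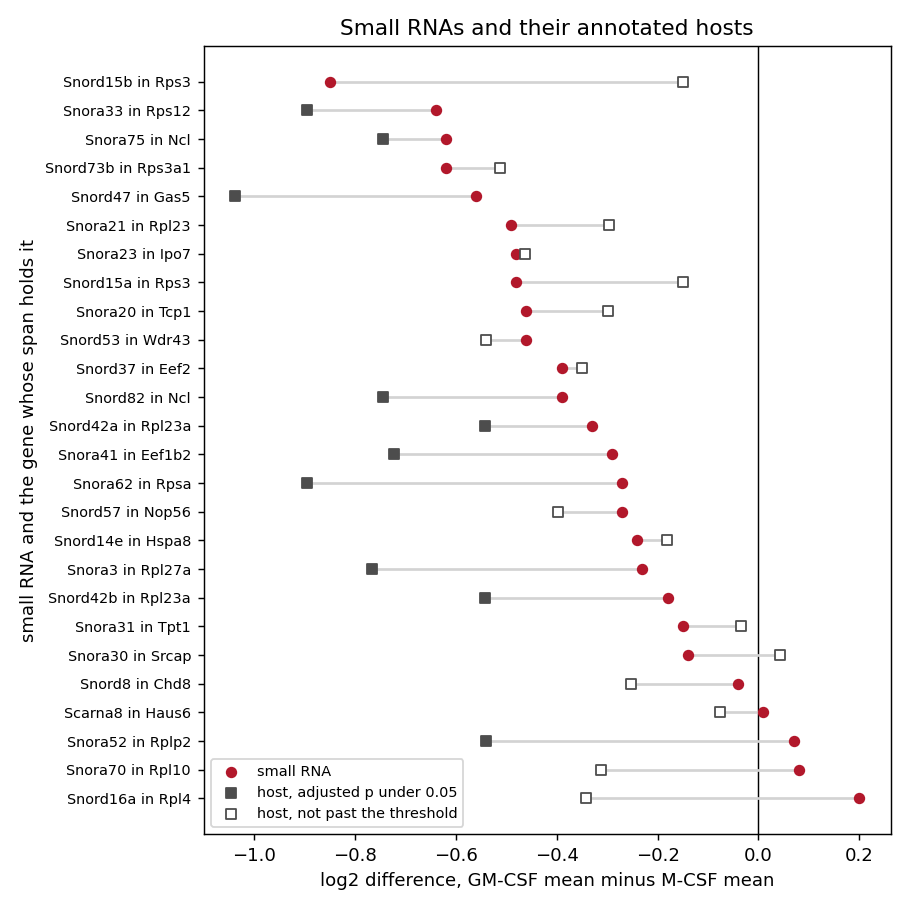
Log2 difference between GM-CSF and M-CSF means for 26 small RNAs (circles) and the genes whose span holds them (squares, filled where the host's adjusted p was under 0.05). Hosts such as Rpsa and Rpl27a lie left of their small RNA, and Rps3 lies right of Snord15b.

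A list of 27 genes covered proteins of small nucleolar particles, of their assembly and of the nucleolus at large, such as Ncl and Npm1. Of these, 4 fell in GM-CSF cells and 0 rose (limma), against 4.53% of all genes tested lower and 6.18% higher. The other 23 did not pass, and the median difference was -0.18. At an unadjusted p under 0.05, 9 were lower and 0 higher, against 12.6% and 12.9% of all genes. These shares are also the background of the lists that follow, in each of which a single gene passed. Nop58, a core protein of C/D box particles, fell by 0.68 on the log2 scale (limma adjusted p = 0.0219). Tgs1, which adds further methyl groups to the cap of U RNAs such as U3 and U8, fell by 0.82 (limma adjusted p = 0.0132). Ncl, nucleolin and the host of Snora75 and Snord82, fell by 0.75 (limma adjusted p = 0.00818). Npm1, nucleophosmin, fell by 0.57 (limma adjusted p = 0.0393) and missed the threshold with no filter (0.0548). Fbl, the methyltransferase of C/D box particles, differed by -0.35 and Dkc1, the pseudouridine synthase of H/ACA box particles, by 0.02, without passing. None of the 4 passed without M-CSF replicate 1 or 2. In the list for spliceosomal particles and U RNA processing, 1 of 44 genes rose, 0 fell and 43 did not pass, with a median of -0.01 and 1 gene on each side at an unadjusted p under 0.05. The gene that rose was Lsm8, a ring protein of U6 (0.84 ± 0.11 SE, limma adjusted p = 0.00618, and 0.102 and 0.118 without M-CSF replicates 1 and 2).

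In a list of 9 mostly long non-coding hosts on the array, which also holds the protein-coding Taf1d, Gas5 alone fell and 8 did not pass (limma). With trended and robust variances 3 of the 9 fell. Among 9 other small structured RNAs, Rmrp alone fell, 0 rose and 8 did not pass (at an unadjusted p under 0.05, 3 were lower and 0 higher). Rmrp, the RNA of RNase MRP, which also cuts the ribosomal RNA precursor, read 10.95 and 11.41 in GM-CSF and 12.24 in both M-CSF arrays (log2 difference -1.06 ± 0.17 SE, limma adjusted p = 0.0125). Its adjusted p was 0.164 and 0.167 without M-CSF replicates 1 and 2 (limma). Vaultrc5, a vault RNA, read 7.46 and 8.20 against 8.69 and 8.54 without passing. Rn7sk, which binds a transcription elongation factor, read 13.46 and 13.41 against 13.57 in both M-CSF arrays. Terc, the telomerase RNA, which carries an H/ACA domain, read 7.94 and 7.73 against 7.67 and 7.65.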

How the data were processed

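Total RNA (300 ng per sample) was amplified from random primers and labelled with biotin for Affymetrix arrays of 1 colour, as the labels' protocols state. For each probe set the authors deposited a log2 value. The submitters' processing notes name RMA and Affymetrix Expression Console 1.1. RMA brings all arrays to one distribution, so a change in total RNA per cell cannot be seen. The level at which probes were summarised, and the genome build, are not stated in the sources used. No scan dates or detection calls were used, so batches were not tested, and the number of arrays limits the precision.

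Of 35556 probe sets, 21789 had 1 gene symbol in the platform annotation, 1621 several and 12146 none. A gene with more than 1 probe set took the one with the highest mean. Of the members 6 had 2 probe sets: in 3 both held identical values, and in 3 they differed by up to 0.135. Another 61 probe sets name a small RNA together with other genes and were not counted as members. All 14995 genes past the filter were fitted by lmFit and eBayes of limma 3.58.1 (R 4.3.3), with 2 residual and 4.17 prior degrees of freedom, and two-sided p-values were adjusted over all of them by Benjamini-Hochberg. The fit was tested on simulated data. Tables and plots used Python 3.11.15, pandas 2.3.3 and matplotlib 3.10.9. Medians over members and their spread within pairs cover all 59 and were not tested.

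Members named were the Rnu and Scarna genes tested, the 12 members with the largest difference between groups, the 12 with the largest difference between the GM-CSF arrays, and the 5 with the highest mean, 21 in all, with their hosts, and up to 4 genes of a list. Other genes named, such as those paired by a shared host, were chosen after their values were seen. The members and gene lists were chosen with earlier results of these data known. Hosts were found from RefSeq gene spans, without strand, because the table gives none. Other settings tried were no filter, a stricter filter (50th percentile), quantile normalization, median centring, the mean of a gene's probe sets, trended and robust variances, a replicate block, and leaving out each array. Where this left 1 array in a group, it took the spread of the other group.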

Additional observations from a re-analysis of the deposited data

How the results depend on the processing

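The direction of the median over members was negative under all settings run, from -0.271 (quantile normalization) to -0.309 (without M-CSF replicate 2). That of the GM-CSF pair ran from -0.062 to -0.100. The count of members that were lower (4) was 3 to 5 under changes of filter, normalization, probe set choice or variance, 8 with the replicate block, and 0 to 24 with an array left out, with 0 to 2 higher. Replicate numbers are shared between groups only by label: the replicate differences of both pairs correlated at 0.065 across genes, so the block is no proof of pairing. With an array left out, the lower counts ran from 0 to 9 for proteins of small nucleolar particles (4 with all arrays), 0 to 13 for hosts (8), 0 to 3 for long non-coding hosts (1) and 0 to 3 for other small structured RNAs (1), and the higher count of spliceosomal genes from 0 to 2 (1). In the list of long non-coding hosts, which also holds Taf1d, 2 were lower with the stricter filter, with quantile normalization and with the replicate block. With trended and robust variances 3 were lower. These list counts were chosen after seeing the data, and the list of particle proteins also holds general nucleolar proteins such as Ncl and Npm1. Among the 21 named members the sign turned only in fits that left out an array, where the difference ran from -3.095 to 0.093 for Rnu12, -0.149 to 0.121 for Scarna17, -0.199 to 0.225 for Scarna8, -0.716 to 0.423 for Snora31, -0.419 to 1.673 for Snora44 and -0.589 to 0.039 for Snord57. The sign turned without GM-CSF replicate 1 in Rnu12, Scarna17, Snora31 and Snora44, without GM-CSF replicate 2 in Scarna8 and Snord57, and without M-CSF replicate 1 in Scarna17 (0.038) and Scarna8 (-0.094). Fits without a GM-CSF array take their spread from the closer M-CSF pair, so their larger counts are no support for the calls. For other changes the cause was not tested. Shares of all genes are given only for the fit of all 4 arrays without a block, so counts under other settings have no background.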

Other observations

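Several small RNAs were measured only by probe sets that also name other genes, and their values are given without a test. The U3 copies Rnu3b1 to Rnu3b4 share 4 probe sets with 1 set of values, which read 7.79 and 8.79 in the GM-CSF and 8.27 and 9.27 in the M-CSF arrays. In both pairs replicate 1 was the lower one, unlike Rnu3a, whose M-CSF arrays read 9.87 and 9.68. The U1 copies Rnu1b1, Rnu1b2 and Rnu1b6 read 8.25 and 8.58 against 8.27 and 8.48 on their brightest probe set, and overlapped between groups. The brightest of the 7 probe sets of U2 (Rnu2-10, shared with Rdm1), which hold 4 distinct sets of values, read 10.92 and 10.91 against 11.27 and 11.14. Snora28, shared with its host Eif5, read 9.06 and 9.17 against 9.71 and 9.56.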
